A study of Arabidopsis thaliana with 6 samples.

Results

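The 10 genes described here are named regulators of the shoot apex and the root apex of Arabidopsis thaliana. They are STM (AT1G62360), WUS (AT2G17950), CLV3 (AT2G27250), CUC1 (AT3G15170), CUC2 (AT5G53950), CUC3 (AT1G76420), BBM (AT5G17430), PLT1 (AT3G20840), PLT2 (AT1G51190) and WOX5 (AT3G11260). They were chosen by name, with no measured value in the rule, although earlier results of these data were known. All 10 were found among the 33602 gene models of the count files. Their read pairs were compared between 6 libraries, 1 library for each of 10, 25, 50, 75 and 100 pg and 5 ng of total RNA. All 6 come from untreated wild-type plants of accession Col-0 and bear the same growth stage label, so the groups share genotype, treatment and stage and are labelled by the amount of RNA. The labels give the tissue as seed. The paper describes dilutions of a same RNA, pooled from laser-cut sections of whole cotyledons of embryos taken 8 days after fertilization on several plants. Library preparation used the SMART-Seq v4 kit, which copies RNA from its poly(A) tail and amplifies the cDNA, and reads were taken in pairs without strand information. As there is 1 library per amount, no value here has a replicate or an SD, and no amount was tested against another.

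The shoot apex of the embryo lies between the cotyledons. There the homeodomain proteins STM and WUS keep cells undifferentiated, the secreted peptide CLV3 restrains WUS, and the NAC proteins CUC1, CUC2 and CUC3 mark the boundary that separates the cotyledons from each other and from the apex. At the opposite pole, the AP2 proteins BBM, PLT1 and PLT2 and the homeodomain protein WOX5, which marks the quiescent centre, maintain the stem cells of the root. In classical descriptions most of these transcripts are confined to a part of the embryo.

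The libraries held between 22403342 and 51130296 read pairs assigned to genes. The 5 ng library stood apart. A list of 14 storage protein and oleosin genes summed to between 878 and 1004 CPM (read pairs per 1000000 pairs counted in the library) from 10 to 100 pg, and to 680038 CPM at 5 ng. Of the 6 it was also the only one of the first sequencing date, so for it the RNA amount, the date and any difference in the RNA itself cannot be told apart. That it is a dilution of the same RNA as the others rests on the paper and was not tested, and this holds for each comparison with 5 ng below. Levels are therefore given as read pairs, as CPM and as CPM divided by the TMM factor of edgeR, which was between 1.07 and 1.41 from 10 to 100 pg and 0.31 at 5 ng. Each of the 16 genes on a list of cotyledon and embryo genes was read in every library, among them the small subunit gene of Rubisco RBCS1A with a mean of 7371 CPM from 10 to 100 pg. In RNA of a whole tissue, fewer cells of a type and less RNA per cell cannot be told apart.

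Sequences are shown for 3 sets of genes, since each set bears on which transcript a read pair can be assigned to or on a known regulator. They were read from the TAIR10.1 genome and its annotation, 5′ to 3′ along the transcript. The first set is the end of the homeobox of WOX5 (chr3:3527750-3527839, plus strand), of WOX7 (chr5:1734646-1734735, plus strand), its nearest relative, and of WUS (chr2:7810393-7810482, minus strand). The stretch was chosen as the 90 bases of the WOX5 coding sequence most like WOX7 without gaps. That of WUS is its best match to the same bases, so the differences are a best case. Capitals mark the bases that differ from WOX5, 11 of 90 in WOX7 and 21 of 90 in WUS.
WOX5: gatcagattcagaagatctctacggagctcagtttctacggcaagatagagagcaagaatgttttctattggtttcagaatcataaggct
WOX7: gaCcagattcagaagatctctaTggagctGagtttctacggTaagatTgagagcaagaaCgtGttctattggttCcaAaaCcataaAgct
WUS: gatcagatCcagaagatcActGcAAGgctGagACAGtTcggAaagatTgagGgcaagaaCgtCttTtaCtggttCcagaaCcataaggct

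The second set is microRNA miR164a (chr2:19520770-19520790, plus strand) in DNA letters, with its seed, bases 2 to 8, in capitals, and the best matching stretch of the 3 CUC coding sequences. This microRNA is known to direct the cleavage of CUC1 and CUC2 transcripts but not of CUC3. The stretches lie at chr3:5111137-5111157 on the plus strand for CUC1, at chr5:21902301-21902321 on the minus strand for CUC2 and at chr1:28672053-28672073 on the minus strand for CUC3. Capitals in them mark bases that differ from the exact reverse complement of miR164a.
miR164a: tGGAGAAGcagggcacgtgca
CUC1: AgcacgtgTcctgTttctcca
CUC2: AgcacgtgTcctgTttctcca
CUC3: CAcaTgCTAcTAgAttctcca
CUC1 and CUC2 hold the same 21 bases with 3 mismatches, whereas the best stretch of CUC3 has 9. A window with at most 3 mismatches occurred in 6 of 27555 coding sequences, or 0.0218%.

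The third set is a stretch of 36 bases that encodes the peptide region of CLV3 (chr2:11665234-11665269, minus strand), beside the same stretch of CLE16 (chr2:228929-228964, minus strand) and CLE17 (chr1:26728431-26728466, plus strand), which had the highest levels from 10 to 100 pg among the 11 other CLE genes that were listed. Capitals mark bases that differ from CLV3, 17 in CLE16 and 16 in CLE17.
CLV3: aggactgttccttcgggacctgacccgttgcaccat
CLE16: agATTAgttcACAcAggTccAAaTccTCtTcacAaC
CLE17: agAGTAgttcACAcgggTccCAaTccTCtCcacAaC

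Of the 10 genes, WOX5 was the only one read in all 6 libraries and CLV3 the only one read in none. With a minimum of 1 read pair, the 10, 25, 50, 75 and 100 pg libraries held 2, 5, 4, 5 and 6 of the 10 genes, and the 5 ng library held 9. Over all gene models, the same libraries held 47.4%, 50.1%, 55.0%, 58.1% and 57.3%, and the 5 ng library 51.9%. At 25, 75 and 100 pg the 10 genes lay within 1 gene of that share, at 10 and 50 pg below it and at 5 ng above it, with no test. Being read in all 6 libraries applied to 38.0% of all gene models and to 1 of these 10. Most detections from 10 to 100 pg rested on few reads: of the 50 combinations of gene and library, 28 had 0 read pairs, 11 had 1 and only 9 had 10 or more. With a minimum of 10 read pairs, 1, 2, 1, 3 and 2 of the genes remained from 10 to 100 pg in order of amount, and 7 at 5 ng. Over all gene models this minimum left 37.4%, 43.0%, 48.0%, 52.2% and 50.7% from 10 to 100 pg, and 46.4% at 5 ng.

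**Figure D1:**
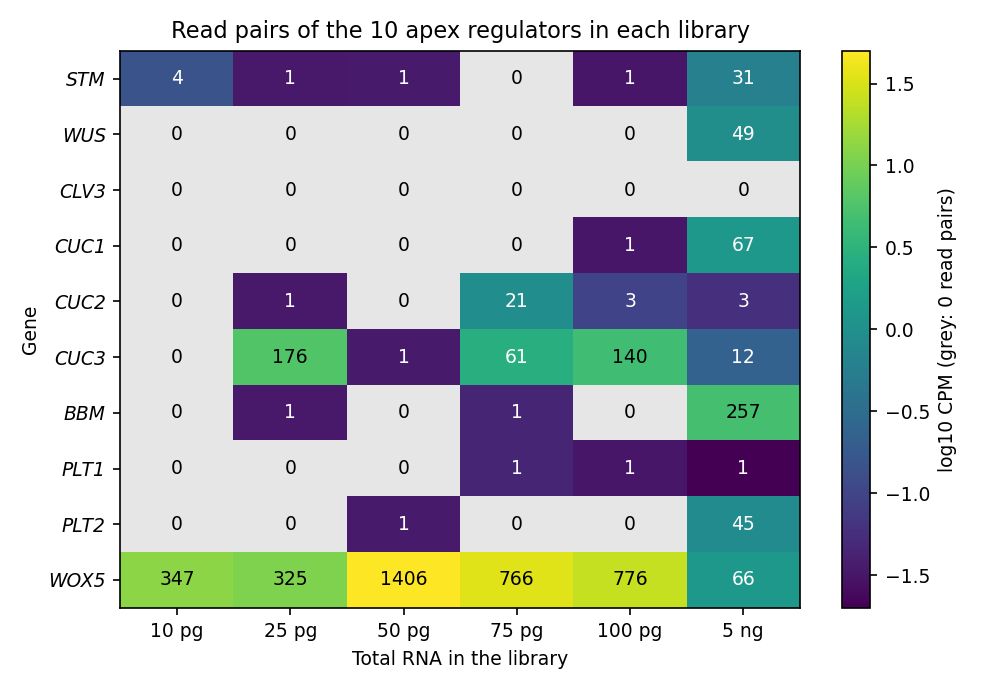
Read pairs of the 10 genes (rows) in the 6 libraries (columns, by amount of total RNA), with the colour giving log10 CPM and grey marking 0 pairs. WOX5 is coloured in every column, CUC3 in 5 of them, and BBM, CUC1, WUS and PLT2 stand out only at 5 ng.

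WOX5 dominated the read pairs of these genes from 10 to 100 pg. At 10 pg it took 98.9% of their pairs (exact Clopper-Pearson 95% interval 97.1 to 99.7%). Its share was 64.5% (60.1 to 68.7%) in the 25 pg library and 99.8% (99.4 to 99.96%) in the 50 pg library. In the 75 pg library it was 90.1% (87.9 to 92.0%), and in the 100 pg library 84.2% (81.7 to 86.5%). At 5 ng its share was 12.4% (9.75 to 15.5%), below that of every other library and with an interval that overlaps none of them. Reads that come from PCR copies are not independent molecules, so these intervals, and the limits given for counts of 0, cover counting error only. Without WOX5 and CUC3, the remaining 8 genes had 4, 3, 2, 23 and 6 read pairs at 10, 25, 50, 75 and 100 pg, and 453 at 5 ng.

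WOX5 lies on chromosome 3 at positions 3527280 to 3528440 on the plus strand, with 2 exons and no overlapping gene. It had 347, 325, 1406, 766 and 776 read pairs at 10, 25, 50, 75 and 100 pg, and 66 at 5 ng. These are 13.0, 11.2, 49.1, 34.2 and 25.2 CPM at 10 to 100 pg and 1.29 CPM at 5 ng. The 5 lower amounts were all above 5 ng, and their order did not follow the amount, with the 50 pg library highest and the 25 pg library lowest. On the TMM scale the level was between 9.28 and 36.9 CPM from 10 to 100 pg, a 3.98-fold range, and 4.22 CPM at 5 ng. The transcript is nearest in sequence to WOX7, with 79.8% identity over 242 aligned bases, and WOX7 itself had 0, 0, 1, 1 and 0 read pairs from 10 to 100 pg, and 0 at 5 ng. The longest run of bases WOX5 shares exactly with another transcript is 32, less than the length of a full read. The authors also kept trimmed, shorter reads and aligned reads locally, and misplacement of reads was not tested. The next gene on the same strand, MEE34 (AT3G11270), lies 360 bases away.

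CUC3 was the only other gene of the 10 with more than 25 read pairs in any library from 10 to 100 pg. It lies on chromosome 1 at positions 28671806 to 28674045 on the minus strand. It had 0, 176, 1, 61 and 140 read pairs at 10, 25, 50, 75 and 100 pg, and 12 at 5 ng, or 0, 6.04, 0.035, 2.72 and 4.55 CPM at 10 to 100 pg and 0.23 CPM at 5 ng. The gene was thus read well at 25, 75 and 100 pg and nearly absent from the 50 pg library, which was nearly as deep as the 25 pg library. A count of 0 at 10 pg allows up to 0.11 CPM.

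**Figure D2:**
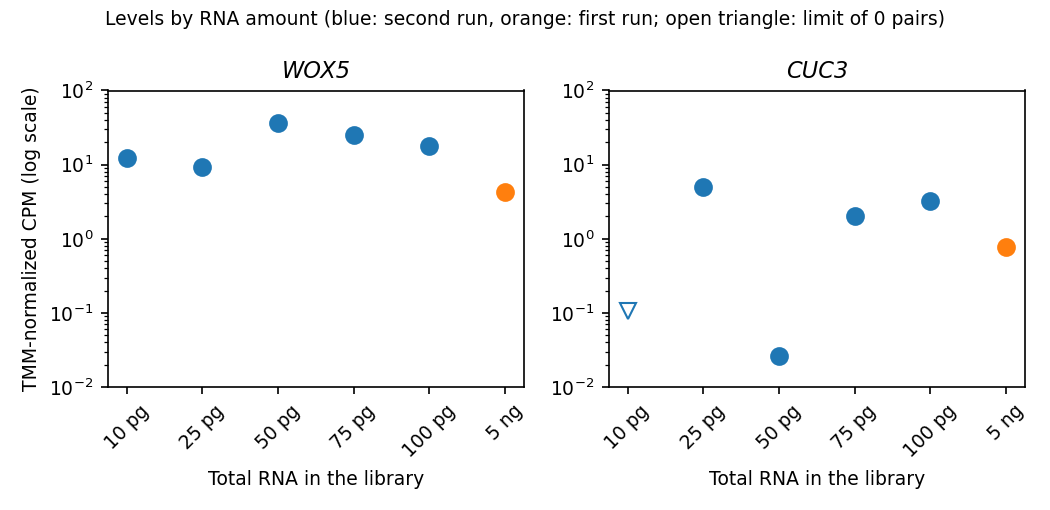
TMM-normalized CPM (log axis) of WOX5 and CUC3 in each library, by amount of total RNA, with blue points for the second sequencing date, orange for the first and an open triangle for the limit of a count of 0. WOX5 stays between 9.28 and 36.9 CPM from 10 to 100 pg, while CUC3 is highest at 25 pg, with 5.03 CPM, and lowest among the libraries that read it at 50 pg, with 0.026 CPM.

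The other CUC genes behaved differently from CUC3 and from each other. CUC1 (chromosome 3, 5109782 to 5111608, plus strand) had 0, 0, 0, 0 and 1 read pairs from 10 to 100 pg, and 67 at 5 ng. CUC2 (chromosome 5, 21901704 to 21903854, minus strand) had 0, 1, 0, 21 and 3 read pairs from 10 to 100 pg, and 3 at 5 ng. CUC1 was therefore read almost only at 5 ng, and CUC2 reached 10 pairs only at 75 pg. Together the 3 genes had 404 pairs from 10 to 100 pg, of which 378 were of CUC3, and 82 at 5 ng, of which 67 were of CUC1. CUC1 and CUC2, which share the miR164 site shown above, are 78.8% identical over 457 aligned bases, and CUC3 is 73.1% identical to CUC2 over 390 bases.

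Of the 3 shoot meristem genes, STM and WUS were read mainly at 5 ng. STM (chromosome 1, 23058582 to 23062063, minus strand) had 4, 1, 1, 0 and 1 read pairs from 10 to 100 pg, and 31 at 5 ng. WUS (chromosome 2, 7808871 to 7810811, minus strand) had 0 in each library from 10 to 100 pg, and 49 at 5 ng. CLV3 (chromosome 2, 11664978 to 11665797, minus strand) had 0 in all 6 libraries, like 10698 gene models in all. At these depths a count of 0 allows CLV3 and WUS up to between 0.097 and 0.13 CPM from 10 to 100 pg, and CLV3 up to 0.059 CPM at 5 ng. STM was the only gene beside WOX5 with a read pair at 10 pg, at 0.15 CPM, close to the 0.11 CPM that a count of 0 allows there.

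Of the AP2 genes, BBM (chromosome 5, 5742393 to 5745748, minus strand) had 0, 1, 0, 1 and 0 read pairs from 10 to 100 pg, and 257 at 5 ng, the highest count of the 10 genes there. PLT2 (chromosome 1, 18977176 to 18980618, plus strand) had 0, 0, 1, 0 and 0 from 10 to 100 pg, and 45 at 5 ng. PLT1 (chromosome 3, 7300444 to 7303693, plus strand) had 0, 0, 0, 1 and 1 from 10 to 100 pg, and 1 at 5 ng. BBM and PLT2 were read well at 5 ng only, and PLT1 hardly anywhere, although PLT1 and PLT2 are each other's nearest relative, 73.0% identical over 1907 aligned bases. The longest run of bases that PLT1 and PLT2 share exactly is 38.

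Per kilobase of gene model, the order of the genes was different at 5 ng and at the lower amounts. The mean over 10 to 100 pg was 35.4 CPM per kilobase for WOX5, 2.42 for CUC3, 0.19 for CUC2 and 0.037 for STM, with the other 6 genes below 0.01. At 5 ng, BBM led with 2.86 CPM per kilobase, before WOX5 with 1.72, CUC1 with 1.34, WUS with 0.78, STM with 0.44, PLT2 with 0.41 and CUC3 with 0.21. CUC2 followed with 0.051, PLT1 with 0.0092 and CLV3 with 0. From 10 to 100 pg the lowest WOX5 level per kilobase, 14.9, was above the highest of CUC3, 5.47, so these do not overlap. The levels of CUC3 and CUC2 overlap with each other and with those of STM.

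With no replicate, folds between libraries are given with the share of all genes past the same fold. A gene was compared where it reached 1 CPM in either library, and past 2-fold was read from log2 of TMM-normalized CPM plus 1, a scale that understates the change of low genes. Between 10 and 100 pg, 62.3% of 16575 genes were past 2-fold, with a median log2 ratio of -0.36. Of these, 3767 were higher and 6558 lower at 10 pg, against 2649 and 7579 with library totals alone as the scale. Of the 2 genes compared, CUC3 was past it with a log2 ratio of -2.08, at least 30.7-fold lower at 10 pg against the limit of 3 counts, and WOX5 was not, with -0.52. The ratio of WOX5 on the TMM scale was 0.68 (95% counting interval 0.60 to 0.77).

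Between 25 and 100 pg, 49.1% of genes were past 2-fold and neither CUC3 nor WOX5 was. CUC3 had a log2 ratio of 0.52 and WOX5 of -0.87, or -1.11 with library totals alone. Between 50 and 100 pg, 38.8% of genes were past 2-fold, and both were. WOX5 had a log2 ratio of 1.01, just beyond the threshold (0.93 with library totals alone), and was 2.07-fold higher at 50 pg (1.90 to 2.27). CUC3 had a log2 ratio of -2.04, and the ratio of its TMM levels, from 1 against 140 pairs, was 0.0082 (0.00021 to 0.046). Between 75 and 100 pg, 30.2% of genes were past 2-fold and neither gene was, with log2 ratios of 0.48 for WOX5 and -0.48 for CUC3. These comparisons share the 100 pg library. As 30.2% or more of all genes lay past the fold in each, the count of 2 genes does not stand out from the rest.

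Loss of genes at low amounts was read among those of similar level at 100 pg. Of the 4406 gene models with 1 to 10 CPM at 100 pg, 35.7%, 26.7% and 13.3% had 0 read pairs in the 10, 25 and 50 pg libraries. CUC3, the 1 gene of the 10 in this class, was at 0 at 10 pg and not at 25 or 50 pg. Of the 9986 gene models with 10 to 100 CPM at 100 pg, 5.65%, 3.85% and 0.851% were at 0 in the same 3 libraries. WOX5, the 1 gene of the 10 in that class, was at 0 in none.

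Between 100 pg and 5 ng, 64.1% of 17411 genes were past 2-fold with a median log2 ratio of 0.32. Of these, 6405 were higher and 4756 lower at 100 pg, against 12533 and 1782 with library totals alone and 8131 and 3617 with totals that leave out the 14 storage protein and oleosin genes. All 4 of the 10 genes that could be compared were past 2-fold. WOX5 and CUC3 were higher at 100 pg, WOX5 with 17.8 CPM at 100 pg and 4.22 CPM at 5 ng on the TMM scale (ratio 4.22, counting interval 3.28 to 5.51), and CUC3 with 3.22 and 0.77 CPM (ratio 4.19, 2.32 to 8.30). BBM and CUC1 were lower at 100 pg. BBM had 0 pairs there and 16.4 CPM at 5 ng, at least 239-fold lower by the limit of 3 counts. CUC1 had 0.023 CPM from 1 pair at 100 pg and 4.29 CPM at 5 ng, a ratio of 0.0054 (0.00013 to 0.031). WUS and PLT2, which did not reach 1 CPM in either library, had 0 pairs at 100 pg and were at least 45.5-fold and 41.8-fold lower than at 5 ng by the same limit. STM, with 1 pair at 100 pg, had a ratio of 0.012 (0.00028 to 0.070). With library totals alone as the scale these 7 directions were the same, but the bounds were 51.6-fold for BBM, 9.83-fold for WUS and 9.03-fold for PLT2, and the ratios were 19.5 for WOX5 and 19.4 for CUC3. That scale placed the median of all genes at 2.03 in place of 0.32. On it CUC3 had a log2 ratio of 2.17 and WOX5 of 3.52, so that CUC3 lay close to that median.

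**Figure D3:**
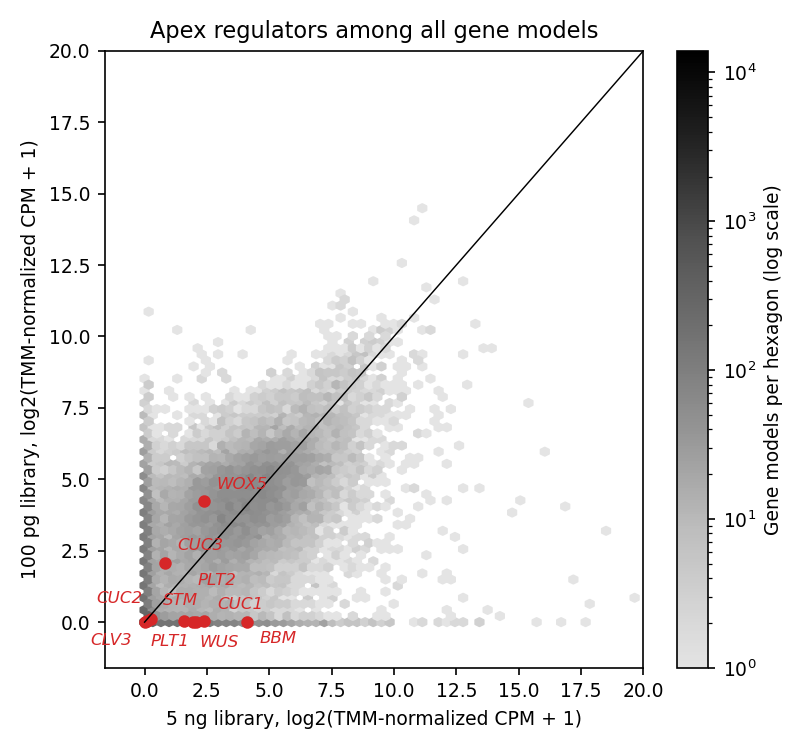
Levels of all gene models at 100 pg (vertical axis) and at 5 ng (horizontal axis), as log2 of TMM-normalized CPM plus 1, in hexagons shaded by the number of gene models, with the 10 genes as red points and a line of equal level. WOX5 and CUC3 lie above the line, and BBM, CUC1, WUS, PLT2 and STM lie along the bottom, at or near 0 at 100 pg.

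The genes read at 5 ng alone were counted by a rule chosen after these values were seen. A minimum of 10 read pairs at 5 ng and at most 1 in each library from 10 to 100 pg held for 778 of 15600, or 4.99%. Of the 7 genes of the 10 with at least 10 pairs at 5 ng, WUS, CUC1, BBM and PLT2 met it, and STM, CUC3 and WOX5 did not. As the pattern of these genes gave rise to the rule, the count has no test.

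The trend with RNA amount was fitted over the 5 libraries from 10 to 100 pg with edgeR's quasi-likelihood test, which left 3 residual degrees of freedom. The Benjamini-Hochberg adjusted p was under 0.05 for 0 of 17366 genes, or 0.00%, although 2388 had an unadjusted p under 0.05, and DESeq2 called 1730. WOX5 and CUC3 were the 2 of the 10 genes with enough reads to be fitted. The level of WOX5 had a slope of 0.39 ± 0.36 (SE) log2 units per doubling of the RNA, with an adjusted p of 0.651 by edgeR. CUC3 had a slope of 0.50 ± 1.37 (SE), with an adjusted p of 0.895 by edgeR. The slope of CUC3 rested on single libraries. It was -0.34 without the 10 pg library and 3.76 without the 25 pg library, with edgeR adjusted p of 0.944 and 0.171.

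Genes that act with the 10 in the shoot meristem formed a list of 24. Of these, which includes receptors and phosphatases of the CLV3 pathway, 17, 16, 16, 20 and 19 were detected from 10 to 100 pg, and 19 at 5 ng, with DRN at 0 throughout. The 2 with the highest mean level were AGO10, an Argonaute protein that sequesters a family of microRNAs, with 103 CPM over 10 to 100 pg, and BAM1, a receptor kinase related to CLV1, with 85.2 CPM. CLV1, a receptor of the CLV3 peptide, had 11, 991, 344, 436 and 506 read pairs from 10 to 100 pg, and 80 at 5 ng. KNAT6, a KNOX gene related to STM, had 0, 0, 0, 33 and 0, and 201 at 5 ng. The other KNOX genes of the list did not share this pattern. KNAT1 had 1, 1, 0, 1 and 3 read pairs from 10 to 100 pg, and 0 at 5 ng. KNAT2 had 0 in each library from 10 to 100 pg, and 1 at 5 ng. CLV1, KNAT6, KNAT1 and KNAT2 were picked after their values were seen. The receptor CLV1 was thus read in every library while CLV3 was read in none.

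Among 10 other organ boundary genes, 2, 5, 4, 5 and 4 were detected from 10 to 100 pg, and 3 at 5 ng, and LOB, LAS and DPA4 were at 0 throughout. JLO, a LOB domain gene of organ boundaries, had 5, 577, 916, 407 and 690 read pairs from 10 to 100 pg, and 565 at 5 ng. BOP2, a co-activator of the cotyledon and leaf base, had 0, 307, 85, 114 and 112, and 0 at 5 ng. Both were lowest of the 5 lower amounts at 10 pg, as was CUC3. Of 4 other NAC genes known as miR164 targets, 2, 3, 2, 3 and 3 were detected from 10 to 100 pg, and 4 at 5 ng. ORE1, a regulator of leaf ageing, had 8, 584, 434, 19 and 477 read pairs from 10 to 100 pg and 5 at 5 ng. NAC1, a regulator of lateral roots, had 0, 3, 1, 25 and 25 and 15 at 5 ng.

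Of 23 other genes of the root apex and the AP2 family, 11, 12, 14, 13 and 14 were detected from 10 to 100 pg, and 15 at 5 ng, with 6 at 0 throughout. AIL5, an AP2 gene of the same clade as BBM, had the highest mean of the list, 145 CPM over 10 to 100 pg, with between 2867 and 5059 read pairs in those libraries and 908 at 5 ng. ANT, an AP2 gene of organ growth, had between 782 and 2388 read pairs from 10 to 100 pg and 0 at 5 ng. ANT was thus read at the lower amounts only, whereas BBM and PLT2 were read well at 5 ng only. ANT is also the gene with the longest exact run in common with BBM, 32 bases.

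In the WOX family, 3, 3, 6, 6 and 5 of 13 other genes were detected from 10 to 100 pg, and 8 at 5 ng, and WOX4 and WOX10 were at 0 throughout. WOX13, a widely expressed member, had 41, 790, 186, 288 and 321 read pairs from 10 to 100 pg, and 357 at 5 ng. WOX1, a gene of blade margins, had 4, 405, 412, 212 and 609, and 443 at 5 ng. WOX13 and WOX1 averaged 11.7 and 11.5 CPM over 10 to 100 pg, and both were lowest at 10 pg. WOX9 and WOX12, picked after their values were seen, had 0 read pairs in each library from 10 to 100 pg, like WUS, and 362 and 432 at 5 ng. WOX8, also picked after its values were seen, went the other way. It had 1, 635, 223, 143 and 442 read pairs from 10 to 100 pg, and 0 at 5 ng.

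Of 11 other CLE genes, 7, 7, 7, 8 and 7 were detected from 10 to 100 pg, and 7 at 5 ng, with CLE1 and CLE8 at 0 throughout. CLE16 had between 1001 and 2156 read pairs from 10 to 100 pg and 9 at 5 ng, and CLE17 between 627 and 1658 and 11 at 5 ng. CLE16 and CLE17 were thus read in all 6 libraries, and CLV3 in none.

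The median log2 ratio of 100 pg to 5 ng was 0.03 over the gene models read in at least 1 library. This leaves out the 10698 at 0 in all 6, whereas the medians of the 10 genes and of the lists keep such genes. The median was -0.85 over the 10 genes and -0.97 over the 13 other WOX genes. Within both groups the members went both ways, with WOX5 at 1.85 and BBM at -4.12 among the 10 genes, and the medians have no test. The medians of the shoot meristem, organ boundary, root apex and CLE lists were 0.02, 0.00, 0.00 and 0.00, that of the 4 NAC genes was -0.31, and that of the 16 cotyledon and embryo genes was 0.88.

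**Figure D4:**
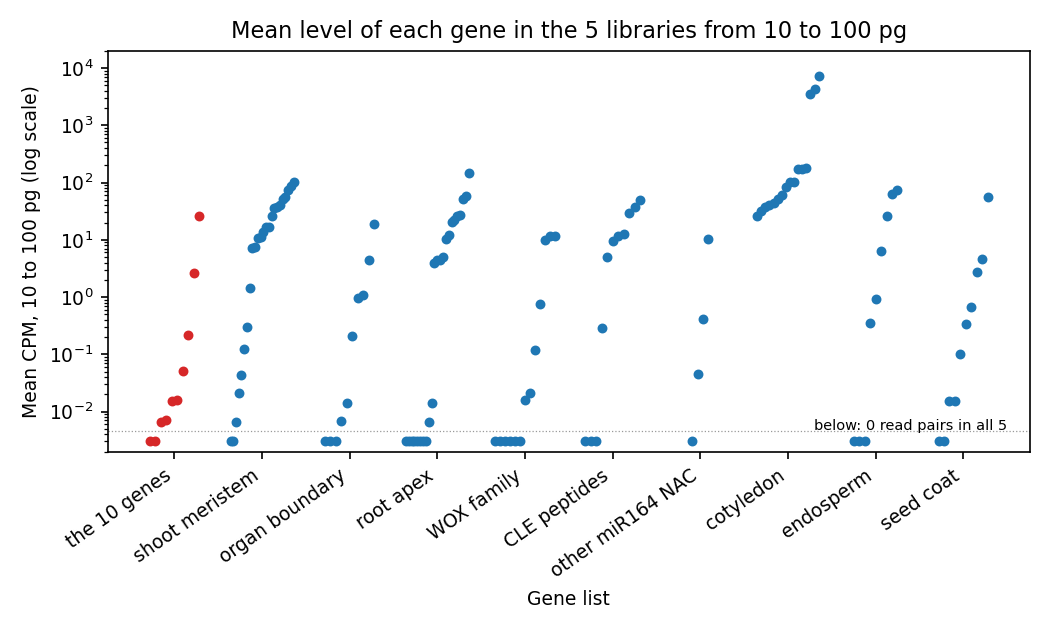
Mean CPM over the 5 libraries from 10 to 100 pg (log axis) of each gene in the set of 10 (red) and in 9 lists of related or tissue marker genes (blue), with genes at 0 read pairs in all 5 drawn below the dotted line. In the set of 10 only WOX5 and CUC3 exceed 1 CPM, whereas all 16 cotyledon genes lie above 10 CPM.

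Genes of tissues next to the embryo were read too. Of 9 endosperm genes, 5, 5, 6, 6 and 6 were detected from 10 to 100 pg, and 6 at 5 ng, with FWA and PHE1 at 0 throughout, and their summed level was between 133 and 215 CPM from 10 to 100 pg and 2.85 CPM at 5 ng. ZOU, an endosperm transcription factor, and ALE1, a protease of the endosperm that acts on the embryo surface, had means of 72.8 and 62.2 CPM over 10 to 100 pg. Together with MYB118, at 25.7 CPM, they made up most of the summed level in each of those libraries. EDE1 followed with a mean of 6.48 CPM. It had 8, 66, 316, 380 and 56 read pairs from 10 to 100 pg, and 54 at 5 ng. MYB118 and EDE1 were picked after their values were seen. Of 10 seed coat genes, 5, 3, 4, 4 and 5 were detected from 10 to 100 pg, and 6 at 5 ng, with none at 0 in all 6 libraries and a summed level between 16.6 and 105 CPM from 10 to 100 pg and 62.2 CPM at 5 ng. MUM4, a gene of mucilage synthesis, had the highest mean of that list, 55.9 CPM over 10 to 100 pg. It made up most of the summed level in each of those libraries, from 14.7 CPM at 10 pg to 93.9 CPM at 25 pg. TT8, a regulator of flavonoid synthesis, followed with a mean of 4.65 CPM. TT10, a laccase of the seed coat, and STK, a MADS gene of ovule and seed coat, picked after their values were seen, had 0 read pairs in each library from 10 to 100 pg, and 2181 and 263 at 5 ng. Other genes of the list, also picked after their values were seen, went the other way. TT16 had 101 read pairs at 100 pg and 0 at 5 ng. TT12 had 2 to 5 from 10 to 100 pg and 0 at 5 ng. MUM4 and TT8 had 582 and 23 read pairs at 5 ng, or 11.4 and 0.45 CPM. The sums of both lists rest on library totals. The TMM factor of 0.31 at 5 ng would raise the levels there against those of the lower amounts. On the TMM scale TT10 alone had 139.5 CPM at 5 ng. The part of these tissues in the levels of the 10 genes was not tested.

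The genes whose levels were most like WOX5 over the 6 libraries were sought among 11772 genes with a mean CPM within 4-fold of it, by Pearson's r of log2 TMM-normalized CPM plus 1. The nearest were ETR2 (AT3G23150), an ethylene receptor gene, with r = 0.995, AT5G55400 with r = 0.990 and emb2737 (AT5G53860) with r = 0.989, each with the same rank order of the libraries as WOX5. In all, 102 of the genes had an r above 0.9. These points share libraries, depth and the scaling of the 5 ng library, and the correlation over 6 libraries is given as a description only. ETR2, like WOX5, was highest at 50 pg, with 25.4 CPM on the TMM scale, and was at 0 at 5 ng.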

How the data were processed

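The 6 libraries were analysed from their deposited counts. According to the paper, trimmed reads free of ribosomal RNA were mapped by the authors against 33602 representative TAIR10 gene models (Bowtie2, local alignment). The authors deposited the raw count of read pairs placed on a single gene by both mates, and a count of single reads that includes the mates of pairs. The submitters' processing notes also name TopHat2. The paper names Bowtie version 2 with no release number, and its date correction was not repeated. The length of each gene model, also deposited, served for levels per kilobase.

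CPM, TMM factors and the slope test were computed with edgeR 4.0.16 in R 4.3.3, alternatives with DESeq2 1.42.0, and tables with pandas 2.3.3, NumPy 2.4.6 and SciPy 1.17.1 in Python 3.11.15. Plots were drawn with matplotlib 3.10.9. Folds used a pseudocount of 1 and the genes that reached 1 CPM in a library of the pair. A count of 0 was given the limit of 3 counts per library. P-values reflect the scatter of unreplicated libraries about the slope.

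Members, lists, tests and the rule for named genes were chosen with earlier results of these data known. The rule names all 10 genes, the 2 genes of each list with the highest mean CPM from 10 to 100 pg, the list genes at 0 in all libraries as a count, and the 3 genes most like the member with the most read pairs. Except for WOX7, the nearest relative of WOX5, other genes with levels given are said to be picked after their values were seen. Of 144 list entries, 139 matched a symbol of their locus in TAIR10.1, which holds 32835 of the gene models. Alternatives concerned the count minimum, depth, normalization, pseudocount, filter, tool and libraries.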

Additional observations from a re-analysis of the deposited data

Results flagged for a closer look

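Beside the read pairs, the deposited files count single reads, and those outside counted pairs were used in no comparison. They exceeded 3, the limit that a count of 0 allows, in 10 combinations of gene and library. WOX5 accounted for 6 of these, with 18, 17, 64, 62 and 200 such reads at 10, 25, 50, 75 and 100 pg, and 4 at 5 ng. CUC3 had 6 at 25 pg and 17 at 100 pg. BBM had 14 at 5 ng and PLT1 had 6 at 100 pg, where it had 1 read pair. Dixon's test on a group and a difference of an effect between groups could not be computed with 1 library per amount.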

How the results depend on the processing

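Of the alternative values, 76 kept their direction and call or stayed within the spread allowed, 27 moved and 1 reversed. With a minimum of 2, 5 and 10 read pairs, the genes detected out of 10 numbered 2, 1 and 1 at 10 pg, 2, 2 and 2 at 25 pg, 1, 1 and 1 at 50 pg, 3, 3 and 3 at 75 pg, and 3, 2 and 2 at 100 pg. The share of all gene models was not computed for a minimum of 2 or 5. Thinning to the smallest library gave an expected 4.31, 3.35, 5 and 5.16 at 25, 50, 75 and 100 pg, and 8.26 at 5 ng. A pseudocount of 5 left 0 genes past 2-fold between 10 and 100 pg, 0 between 50 and 100 pg and 2 between 100 pg and 5 ng, by construction of the scale. The shares of all genes past 2-fold were then 44.1%, 19.9% and 47.9%. The ratios and bounds between 100 pg and 5 ng with library totals alone were added after seeing the data. Library totals alone gave 1 between 25 and 100 pg and 1 between 50 and 100 pg, beside 50.3% and 40.8% of all genes. Without the filter, 7 were past 2-fold between 100 pg and 5 ng, as were 55.9% of all genes. DESeq2 called 1730 genes in the slope, against 0 by edgeR, and the cause was not tested. WOX5 and CUC3, the 2 of the 10 genes fitted by both tools, were among the calls of neither.

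Leaving out each library in turn, edgeR called 0 genes in each fit, with 1189 to 4515 at an unadjusted p under 0.05. It gave slopes of WOX5 between 0.30 and 0.55 and of CUC3 between -0.34 and 3.76. The slope of CUC3 reversed to -0.34 without 10 pg. With 0 pairs asked of every library from 10 to 100 pg, an alternative chosen after seeing the data, 1 gene (WUS) was read at 5 ng only, in place of 4. Over all genes this rule held for 665, in place of 778. No paired analysis was possible because each amount has 1 library. Counting every single read was run in place of adding single reads to pairs, as the deposited single count already holds the mates. Depth limits all statements on counts of 0 and 1.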
